A study of Homo sapiens with 10 samples.

Results

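HPGD and the other genes that make, carry and break down prostaglandins were examined in human cells that overexpress DAZL and in control cells. The 10 genes were HPGD, PTGS1, PTGS2, PTGES, PTGES2, PTGES3, PTGR1, PTGR2, PTGIS and SLCO2A1, of 64940 genes in the deposited table. HPGD was chosen because its TPM, a transcript abundance scaled by gene length and library total, was higher in oeDAZL than in control, so its values are given as a description with no test. The other 9 were chosen by name and function around it, with results of these data already known. Tests were limited to the 16687 genes whose TPM averaged 1 or more across the libraries. Of the 10 genes, 9 were among them, and PTGS1 was not.

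The study asked what DAZL, an RNA-binding protein of germ cells, does in human primordial germ cell-like cells (hPGCLCs). RNA sequencing compared 2 control libraries with 2 oeDAZL libraries, all from the human embryonic stem cell (hESC) line H9. The oeDAZL libraries are labelled as hPGCLCs derived from hESCs with genotype oeDAZL, and the control libraries as wt cells that differentiated spontaneously from the same line. The deposited design text calls the control cells WT PGCLCs. The study's methods transduced differentiating cells with a lentivirus carrying DAZL and GFP joined by a P2A linker, which yields separate proteins, or with GFP alone, in medium with BMP4 and BMP8a. Whether the control libraries came from cells with the GFP virus and both BMPs, and whether either group was sorted, is not settled by these sources. The promoter of the lentiviral DAZL is not given in the sources used here. Nothing in the labels says that replicates came from separate cultures, so p-values measure only the spread between these libraries, which may be technical.

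The overexpressed gene, DAZL, had 0 and 0.0333 TPM in control and 102 and 101 TPM in oeDAZL, as the labels have it. Each library listed 16342 to 17239 genes at 1 TPM or more, and mitochondrial transcripts took 12.6% to 14.1% of the TPM. The values carry no read depth, which is therefore unknown. The 8 PGC markers summed to 58.1 to 71.2 TPM, most of it from TFAP2C, an early marker that is also expressed in trophoblast, at 44.3 to 53.9 TPM. NANOS3 lay between 0.732 and 1.66 TPM, SOX17 between 2.52 and 3.35 TPM and PRDM1 between 1.47 and 2.32 TPM, and DDX4, a later germ cell marker, was listed at 0 in all 4 libraries. The 12 amnion and trophoblast markers summed to 3414 to 3666 TPM, led by GABRP, HAND1 and KRT7.

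Prostaglandins are short-lived lipid signals made from arachidonic acid. The cyclooxygenases PTGS1 and PTGS2 make the common precursor PGH2, and terminal synthases turn it into prostaglandin E2 (PTGES, PTGES2 and PTGES3) or prostacyclin (PTGIS). SLCO2A1 takes prostaglandins up into the cell, HPGD oxidizes them to inactive 15-keto forms, and PTGR1 and PTGR2 reduce those products further. HPGD is known for high expression in the placenta and fetal membranes, where it limits the prostaglandins that reach the mother and the fetus.

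The study concerns miRNAs, so the 3′UTRs of the 10 genes were searched for sites of 5 miRNAs that it names, miR-199a-3p, miR-125b-5p, miR-22-3p, miR-21-5p and let-7a-5p. The levels of these miRNAs were not analysed here. A site is the reverse complement of bases 2 to 8 of the miRNA, the same letters followed by A (an 8mer), or the complement of bases 2 to 7 followed by A, on the strand of the transcript only. The letters searched were ATAAGCT and TAAGCTA for miR-21-5p, CTCAGGG and TCAGGGA for miR-125b-5p, ACTACTG and CTACTGA for miR-199a-3p, CTACCTC and TACCTCA for let-7a-5p, and GGCAGCT and GCAGCTA for miR-22-3p. The members of each pair overlap, and where both matched they were counted once as an 8mer. Of 19235 3′UTRs of GENCODE 44, 13.6% held a site of miR-21-5p, 23.5% of miR-125b-5p, 15.3% of miR-199a-3p, 17.0% of let-7a-5p and 19.1% of miR-22-3p. The 8mer of miR-125b-5p was in 5.64% of them and that of miR-199a-3p in 2.57%. The miRNAs of the sites shown are given from RefSeq with the seed, bases 2 to 8, in capitals.
hsa-miR-21-5p: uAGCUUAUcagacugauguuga
hsa-miR-125b-5p: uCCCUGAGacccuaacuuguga
hsa-miR-199a-3p: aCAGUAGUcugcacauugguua
hsa-let-7a-5p: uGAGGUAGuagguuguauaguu

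HPGD held 1 site, for miR-21-5p, at base 1544 of a 3′UTR of 1907 bases, and PTGIS held a site with the same letters. PTGES2 and PTGR2 each held an 8mer. The HPGD and PTGIS sites are shown because they share a seed match, and the other sequences because they are the 8mers. Sequences are from hg38 on the transcript's strand, with the match in capitals.
HPGD, miR-21-5p, chr4:174490534-174490540, minus strand: tgtaatcaggcATAAGCTtgtttgtatgt
PTGIS, miR-21-5p, chr20:49506143-49506149, minus strand: ccacatagctcATAAGCTgtagaactctg
PTGES2, miR-125b-5p, chr9:128120971-128120978, minus strand: acctgctggggCTCAGGGAtgttagggacg
PTGR2, miR-199a-3p, chr14:73885382-73885389, plus strand: aatgttcaggaACTACTGAtgtacctcaaa

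The coordinates cover the letters in capitals. Among the genes whose sites are given here, PTGS1 held 5, PTGR2 and PTGIS 2 each, and PTGES2 1. The PTGR2 sites lie side by side, that of miR-199a-3p from base 1205 and that of let-7a-5p from base 1215 of the 3′UTR. PTGS2, PTGES, PTGES3 and PTGR1 held none in the 3′UTR searched. GUU, the triplet that DAZL is known to bind, occurred 1.47 times per 100 bases in the HPGD 3′UTR, against a median of 1.51 over 18469 3′UTRs of at least 100 bases. The PTGS2 3′UTR, of 2562 bases, held 2.22 per 100 bases, at percentile 89.7, and that of SLCO2A1 held 0.994, at percentile 21.5. A match describes letters and is not a site shown to be used.

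HPGD (ENSG00000164120.14, chr4:174490175-174523154 on hg38, minus strand) encodes the NAD-dependent dehydrogenase that starts prostaglandin breakdown. HPGD had 52.7 and 53.4 TPM in control and 95.2 and 87.0 TPM in oeDAZL. The oeDAZL libraries were both above the control libraries, which lay close together. The group means were 53.0 ± 0.516 TPM (SD, n = 2) in control and 91.1 ± 5.80 TPM (SD, n = 2) in oeDAZL. On the log2(TPM + 1) scale the difference was 0.77, a fold of 1.70, and the ratio of the mean TPM was 1.72. Of the 16687 tested genes, 83 (0.497%) had a log2 fold change at least as high. By TPM among all genes, HPGD ranked 3410 and 3283 in control and 1684 and 1866 in oeDAZL. It did not reach a fold of 2. In bulk RNA, a change in the number of cells that express a gene and a change in RNA per cell cannot be told apart.

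**Figure D1:**
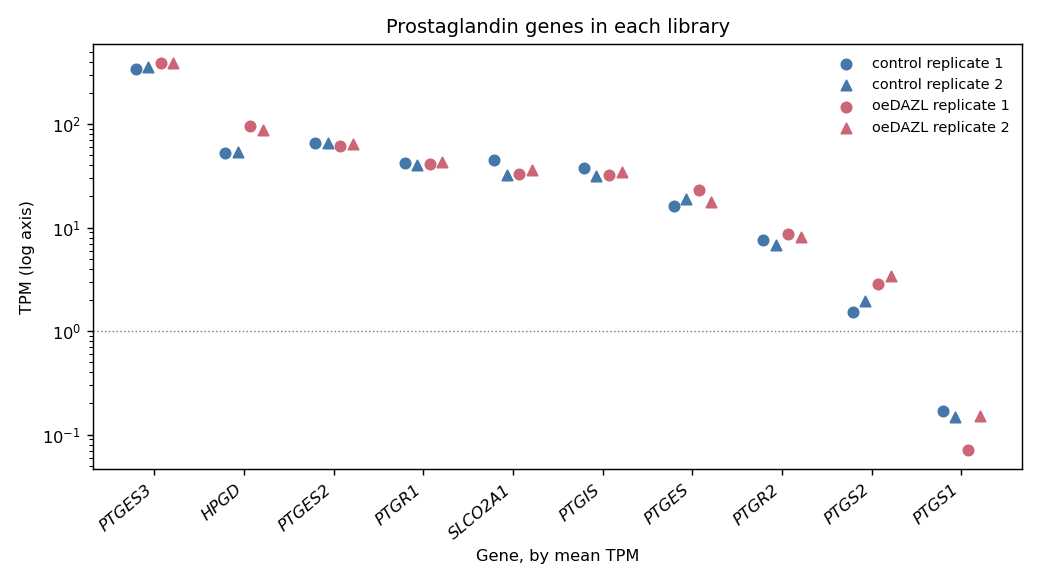
TPM of the 10 prostaglandin genes in each of the 4 libraries, on a log axis, with genes ordered by their mean TPM. Circles are replicate 1, triangles replicate 2, blue control and red oeDAZL, and the dotted line marks 1 TPM. HPGD lies at 52.7 and 53.4 TPM in control and at 95.2 and 87.0 TPM in oeDAZL, whereas PTGR1 lies at 40.5 to 42.8 TPM in all 4 libraries.

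The genes other than HPGD were compared with limma on log2(TPM + 1), as oeDAZL minus control, with p-values adjusted over all 16687 genes. A gene was called at a fold of at least 2 with an unadjusted P of at most 0.05, the thresholds of the study. The study applied them with DESeq2 to counts and called more genes in both directions. Its calls and those given here are therefore not alike. Of the 8 tested genes other than HPGD, 0 were called, where 0.689% of all tested genes were called, 0.126% as higher and 0.563% as lower. An unadjusted P of at most 0.05 at any fold was reached by 2 of the 8, PTGS2 and PTGES3, where 20.2% of all tested genes reached it. No adjusted p of the 8 in limma was under 0.05, a level that 10 of all tested genes met. The median log2 fold change of the 8 was 0.09, with 5 higher and 3 lower, and that of all tested genes was −0.08, with 65.3% lower. The median of all tested genes was −0.0026 with median-of-ratios scaling and 0.0061 with quantile normalization, so this background depends on the scaling. The groups did not overlap for 4 of the 8, nor for 54.4% of all tested genes. With 2 libraries a group, the smallest p of an exact permutation test is 0.333, so none was run for a single gene.

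**Figure D2:**
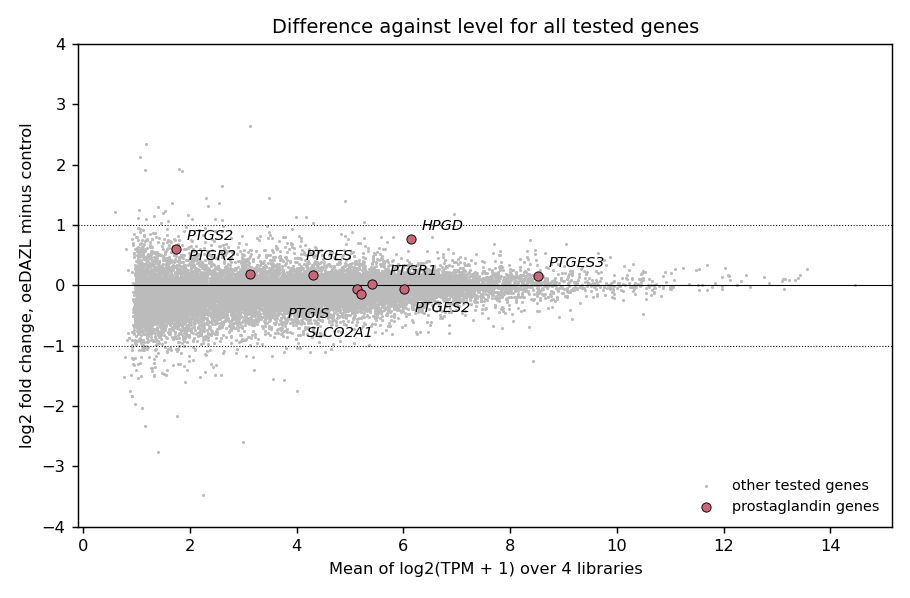
Difference between oeDAZL and control on the log2 scale against the mean log2(TPM + 1) of each of the 16687 tested genes, in grey, with the 9 tested prostaglandin genes in red. Dotted lines mark a fold of 2, and 1 gene, DAZL, lies outside the axis. HPGD lies at 0.77 and PTGS2 at 0.61, whereas the other 7 lie between −0.14 and 0.18.

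The cyclooxygenases were at low levels. PTGS1 (ENSG00000095303.16, chr9:122370530-122395703, plus strand), the constitutive enzyme, was at 0.169 and 0.147 TPM in control and at 0.0711 and 0.150 TPM in oeDAZL. The groups overlapped. PTGS1 was not tested, and without the filter its log2 fold change was −0.061 with an adjusted p = 0.712 in limma.

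PTGS2 (chr1:186671791-186680922, minus strand), the inducible enzyme, was at 1.51 and 1.95 TPM in control and at 2.87 and 3.42 TPM in oeDAZL. The groups did not overlap, with oeDAZL higher. Means were 1.73 ± 0.307 TPM (SD, n = 2) and 3.15 ± 0.385 TPM (SD, n = 2). The log2 fold change was 0.61 with a standard error of 0.20 and a 95% interval from 0.11 to 1.10. The adjusted p of PTGS2 in limma was 0.192, so its difference did not pass adjustment over all genes. The ratio of mean TPM was 1.82, since the pseudocount of 1 lowers the fold of genes near 1 TPM. With a pseudocount of 0.1 the log2 fold change was 0.83. PACERR, an antisense RNA at the PTGS2 start, was at 0.437 and 0.182 TPM in control and at 0.410 and 0.159 TPM in oeDAZL. The strand setting of the counting is not given in the sources used here, so reads of this overlap may be shared. The PTGS2 level in TPM was 8.94 and 13.2 times that of PTGS1 in control and 40.4 and 22.8 times it in oeDAZL. These ratios are imprecise, since PTGS1 lay far below 1 TPM and its groups overlapped. The ratio of 40.4 has the lowest PTGS1 value, 0.0711 TPM in oeDAZL replicate 1, as its denominator.

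The terminal synthases of prostaglandin E2 ranged over an order of magnitude in TPM. PTGES3 (chr12:56663341-56688408, minus strand), which is also the p23 co-chaperone of HSP90, was at 337 and 354 TPM in control and at 385.4 and 385.5 TPM in oeDAZL. The oeDAZL libraries were almost equal and lay above the control libraries. PTGES3 differed by 0.16 on the log2 scale, with a standard error of 0.052 and a 95% interval from 0.032 to 0.29. Its adjusted p was 0.184 in limma. Processed copies can share its reads. Of its pseudogenes, PTGES3P1 was at 13.6 to 16.3 TPM, PTGES3P3 at 1.97 to 3.74 TPM, PTGES3P4 at 0.371 to 1.77 TPM, and PTGES3P2 and PTGES3P5 were listed at 0. The related PTGES3L was at 3.05 to 4.20 TPM and its read-through PTGES3L-AARSD1 at 8.83 to 19.0 TPM.

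PTGES2 (chr9:128120693-128128462, minus strand), a membrane-associated synthase, was at 65.1 and 64.9 TPM in control and at 61.3 and 63.7 TPM in oeDAZL. The oeDAZL values were the lower ones, without overlap. PTGES2 differed by −0.056 on the log2 scale, with a standard error of 0.062 and an adjusted p = 0.644 in limma. Its 95% interval ran from −0.21 to 0.094.

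PTGES (chr9:129738331-129753042, minus strand), the inducible microsomal synthase, was at 16.3 and 19.1 TPM in control and at 22.9 and 17.6 TPM in oeDAZL. The groups overlapped, with the highest and the second lowest value both in oeDAZL. PTGES differed by 0.18 on the log2 scale, with a 95% interval from −0.18 to 0.54 and an adjusted p = 0.523 in limma. Without oeDAZL replicate 1 it was 0.00089.

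PTGIS (chr20:49503874-49568137, minus strand), the prostacyclin synthase, was at 37.9 and 31.6 TPM in control and at 32.4 and 34.0 TPM in oeDAZL. The oeDAZL libraries lay between the control libraries. PTGIS differed by −0.059 on the log2 scale, with a 95% interval from −0.31 to 0.19 and an adjusted p = 0.783 in limma. It was 0.023 with median-of-ratios scaling and 0.0091 with quantile normalization, so its sign depends on the scaling.

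SLCO2A1 (chr3:133932701-134052184, minus strand), the prostaglandin transporter, was at 44.7 and 31.9 TPM in control and at 32.6 and 35.8 TPM in oeDAZL. Its spread between control libraries, 38.3 ± 9.02 TPM (SD, n = 2), was wider than the distance between the group means. SLCO2A1 differed by −0.14 on the log2 scale, with a 95% interval from −0.52 to 0.24 and an adjusted p = 0.642 in limma. Without control replicate 1 it was 0.094, and without control replicate 2 it was −0.38.

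The reductases that act after HPGD did not pass the test. PTGR1 (chr9:111549722-111599893, minus strand), which also inactivates leukotriene B4, was at 41.8 and 40.5 TPM in control and at 40.8 and 42.8 TPM in oeDAZL. The groups overlapped. The log2 fold change of PTGR1 was 0.022, with a 95% interval from −0.15 to 0.19 and an adjusted p = 0.884 in limma. PTGR2 (chr14:73851831-73885726, plus strand), which reduces 15-keto prostaglandin E2, was at 7.64 and 6.84 TPM in control and at 8.61 and 8.11 TPM in oeDAZL. Here the oeDAZL values were the higher ones, without overlap. The log2 fold change of PTGR2 was 0.18, with a 95% interval from −0.13 to 0.50 and an adjusted p = 0.459 in limma.

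TPM is scaled by transcript length, so levels of these genes can be set beside each other within a library. PTGES3 was the highest of the 10 genes in every library. HPGD came after PTGES3 and PTGES2 in the control libraries and after PTGES3 alone in the oeDAZL libraries. HPGD took 8.71% and 8.84% of the summed TPM of the 10 genes in control and 14.0% and 12.8% in oeDAZL, and 19.7%, 21.3%, 32.1% and 29.7% in the same order with PTGES3 left out. The HPGD level was 0.647 and 0.636 times the sum of PTGES and PTGES2 in control and 1.13 and 1.07 times it in oeDAZL. Against SLCO2A1 it was 1.18 and 1.67 times in control and 2.92 and 2.43 times in oeDAZL, and against PTGR1 it was 1.26 and 1.32 times and 2.34 and 2.04 times. These ratios are higher in both oeDAZL libraries than in both control libraries, as the choice of HPGD for its level favours. Against PTGS2 the HPGD level was 34.8 and 27.4 times in control and 33.1 and 25.5 times in oeDAZL, where the groups overlapped.

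The rest of the pathway was described with 5 lists chosen by function, holding 76 genes, of which 30 were tested and 15 were listed at 0 in all 4 libraries. Of the 30, 0 were called, beside 0.689% of all tested genes. An unadjusted P of at most 0.05 was reached by 12 of the 30, 3 with a higher and 9 with a lower level in oeDAZL, beside 20.2% of all tested genes, and no adjusted p in limma was under 0.05. The median log2 fold change was −0.23, with 22 of the 30 lower, beside −0.08 and 65.3% lower for all tested genes. That background depends on the scaling, as given above, and the medians of the lists were not recomputed with other scaling.

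**Figure D3:**
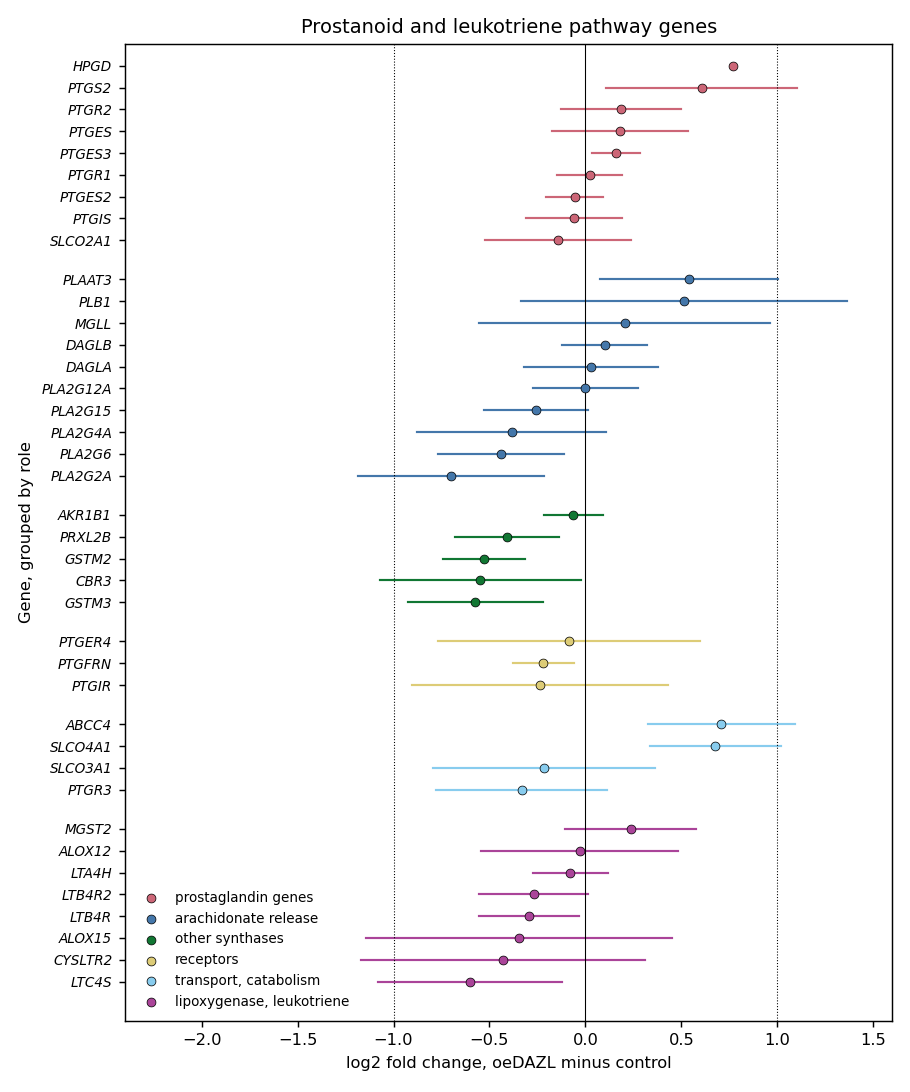
Difference between oeDAZL and control on the log2 scale for the 9 tested prostaglandin genes and the 30 tested genes of the 5 pathway lists, grouped by role. Points are estimates, lines are 95% intervals from limma, dotted lines mark a fold of 2, and HPGD has no interval because it was chosen for its difference. Points of the other synthases all lie below 0, from −0.063 for AKR1B1 to −0.57 for GSTM3.

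Genes that release arachidonic acid from membrane lipids were 24 in number, with 10 tested and a median log2 fold change of 0.014. PLAAT3, a phospholipase that the table lists as PLA2G16, was the highest and lay at 24.7 and 37.6 TPM in control and at 48.1 and 41.6 TPM in oeDAZL. Its log2 fold change was 0.54 with a standard error of 0.19 and an adjusted p = 0.203 in limma. The secreted phospholipase PLA2G2A lay at 27.8 and 18.2 TPM in control and at 12.4 and 14.6 TPM in oeDAZL, a log2 fold change of −0.70 with an adjusted p = 0.155 in limma. Neither gene overlapped between the groups, and their differences had opposite signs. PLB1, another phospholipase, lay at 0.303 and 1.35 TPM in control and at 1.82 and 1.22 TPM in oeDAZL, with overlap and an adjusted p = 0.449 in limma.

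Other prostanoid synthases were 10 in number, with 5 tested, all 5 lower in oeDAZL and a median log2 fold change of −0.53. AKR1B1, an aldo-keto reductase that can make prostaglandin F2α, was the highest and lay at 117 and 125 TPM in control and at 119 and 113 TPM in oeDAZL, with an adjusted p = 0.610 in limma. GSTM2 lay at 30.3 and 27.7 TPM in control and at 19.4 and 20.2 TPM in oeDAZL. Its log2 fold change was −0.53 with a standard error of 0.088 and an adjusted p = 0.0896 in limma. GSTM3 lay at 7.07 and 6.45 TPM in control and at 4.36 and 4.07 TPM in oeDAZL, a log2 fold change of −0.57 with an adjusted p = 0.128 in limma. CBR3, a carbonyl reductase, lay at 3.26 and 2.46 TPM in control and at 1.82 and 1.46 TPM in oeDAZL, with an adjusted p = 0.234 in limma. The GSTM genes are close copies of each other, so their shared reads make these levels uncertain. HPGDS, the hematopoietic prostaglandin D synthase, was listed at 0 in all 4 libraries.

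Prostanoid receptors were near or below 1 TPM. The list held 10 genes, of which 3 were tested, with a median log2 fold change of −0.22. PTGFRN, a membrane protein that binds the prostaglandin F receptor and is no receptor itself, lay at 54.2 and 52.1 TPM in control and at 46.0 and 45.0 TPM in oeDAZL, with an adjusted p = 0.165 in limma. The prostacyclin receptor PTGIR lay at 1.32 and 1.46 TPM in control and at 1.44 and 0.682 TPM in oeDAZL. The prostaglandin E receptor PTGER4 lay at 0.741 and 1.52 TPM in control and at 1.05 and 0.898 TPM in oeDAZL. Both overlapped, with adjusted p-values of 0.662 and 0.891 in limma. PTGER1, PTGER2, PTGER3, PTGDR, PTGDR2, PTGFR and TBXA2R had a mean under 1 TPM.

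Among 15 genes of prostanoid transport and other catabolism, 4 were tested, 7 were listed at 0 in all libraries, and the median log2 fold change was 0.23. SLCO4A1, an organic anion transporter, lay at 5.74 and 5.40 TPM in control and at 10.4 and 8.70 TPM in oeDAZL. Its log2 fold change was 0.68 with a standard error of 0.14 and an adjusted p = 0.104 in limma. ABCC4, which exports prostaglandins from the cell, lay at 5.29 and 4.53 TPM in control and at 9.54 and 7.80 TPM in oeDAZL. Its log2 fold change was 0.71 with a standard error of 0.16 and an adjusted p = 0.110 in limma. For both transporters the groups did not overlap, with oeDAZL higher, and the differences were under a fold of 2. PTGR3, a reductase related to PTGR1 that the table lists as ZADH2, lay at 6.11 and 4.64 TPM in control and at 4.38 and 3.70 TPM in oeDAZL, with an adjusted p = 0.358 in limma.

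The lipoxygenase and leukotriene list, which draws on the same arachidonic acid, held 17 genes, of which 8 were tested, 7 of them lower, with a median log2 fold change of −0.28. LTA4H, the leukotriene A4 hydrolase, was the highest and lay at 101 and 89.5 TPM in control and at 86.4 and 93.4 TPM in oeDAZL. LTC4S, the leukotriene C4 synthase, lay at 4.86 and 5.93 TPM in control and at 3.78 and 2.70 TPM in oeDAZL, a log2 fold change of −0.60. The LTC4S groups did not overlap, and those of LTA4H did. Adjusted p-values in limma were 0.612 for LTA4H and 0.184 for LTC4S. CYSLTR2, a leukotriene receptor, lay at 2.72 and 2.03 TPM in control and at 0.919 and 2.24 TPM in oeDAZL, and ALOX15, a lipoxygenase, at 4.29 and 1.76 TPM and at 1.84 and 2.18 TPM. Both overlapped, with adjusted p-values of 0.467 and 0.583 in limma.

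The 5 tested genes whose pattern was most like that of HPGD were MANEA, SLCO4A1, HMX1, CASP4 and GJD2. Likeness was the root-mean-square distance between values of log2(TPM + 1) centred on each gene's mean, over 4 libraries, and it follows mostly from the difference between the groups. The distance was 0.0630 for MANEA, 0.0666 for SLCO4A1, 0.0703 for HMX1, 0.0752 for CASP4 and 0.0754 for GJD2. MANEA, an endomannosidase of the Golgi, lay at 13.4 and 12.8 TPM in control and at 21.8 and 21.2 TPM in oeDAZL. HMX1, a homeobox gene, lay at 6.51 and 6.11 TPM in control and at 13.0 and 10.4 TPM in oeDAZL. CASP4, an inflammatory caspase, lay at 0.520 and 0.382 TPM in control and at 1.82 and 1.43 TPM in oeDAZL. In TPM the CASP4 groups lie further apart in proportion than those of HPGD. Its likeness therefore depends on the pseudocount of 1. GJD2, a gap junction gene, lay at 6.85 and 8.08 TPM in control and at 14.7 and 12.5 TPM in oeDAZL. SLCO4A1 is also in the transport list above.

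**Figure D4:**
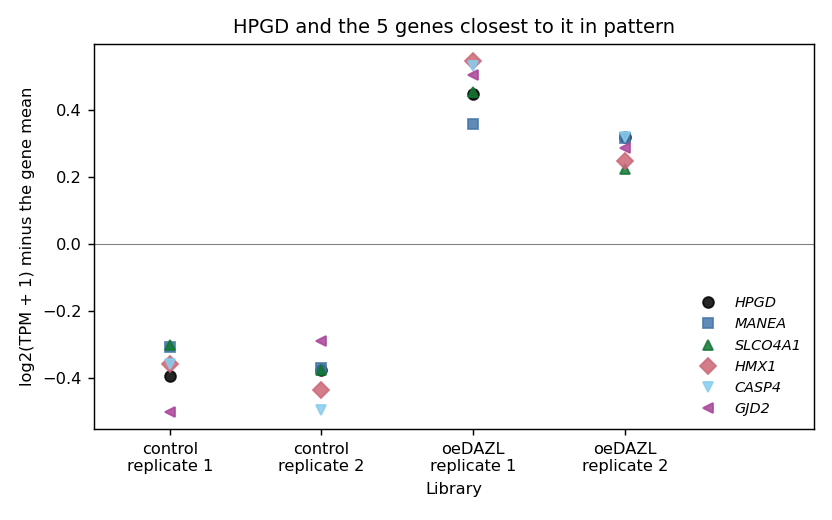
Values of log2(TPM + 1) minus each gene's mean over the 4 libraries, for HPGD and the 5 tested genes closest to it in pattern. Each symbol is 1 gene in 1 library. All 6 genes lie below 0 in both control libraries and above 0 in both oeDAZL libraries, and the 5 were selected for this likeness, at distances from 0.0630 to 0.0754.

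Summed levels of cell type markers overlapped between the groups for the endoderm list and not for the others, and those of the PGC list almost touched. The 12 amnion and trophoblast markers summed to 3544 and 3414 TPM in control and to 3619 and 3666 TPM in oeDAZL. Of the 10 tested, 7 were lower and 3 higher, beside 65.3% lower for all tested genes. An unadjusted P of at most 0.05 in limma was reached by 4 lower and 1 higher, beside 20.2% of all tested genes. HAND1 was higher, at 958 and 1042 TPM in control and at 1250 and 1247 TPM in oeDAZL. CDX2 was lower, at 22.8 and 20.4 TPM in control and at 12.3 and 13.7 TPM in oeDAZL. CGA alone was called, as lower, at 15.5 and 10.4 TPM in control and at 4.34 and 5.82 TPM in oeDAZL. Its adjusted p was 0.0896 in limma. The 8 mesoderm and mesenchyme markers summed to 1351 and 1162 TPM in control and to 709 and 739 TPM in oeDAZL, with COL3A1 called lower. The 8 endoderm markers summed to 284 and 176 TPM in control and to 179 and 220 TPM in oeDAZL. All 8 were tested, 6 were lower, and AFP alone was called, as lower. AFP lay at 36.3 and 13.1 TPM in control and at 8.91 and 11.6 TPM in oeDAZL, with an adjusted p = 0.243 in limma. The 6 neural markers summed to 444 and 581 TPM in control and to 692 and 637 TPM in oeDAZL, with PAX6 called lower. PAX6 lay at 3.83 and 1.14 TPM in control and at 0.0967 and 0.558 TPM in oeDAZL, with an adjusted p = 0.189 in limma. NES led the neural list, at 253 and 347 TPM in control and at 440 and 409 TPM in oeDAZL. Of the 4 neural markers tested, 2 were higher and 2 lower. The 7 pluripotency markers summed to 541 and 487 TPM in control and to 483 and 466 TPM in oeDAZL, most of it from LIN28A at 401 to 476 TPM. Of the 4 pluripotency markers tested, 3 were lower. The POU5F1 difference had the opposite sign, with 13.6 and 10.6 TPM in control and 22.4 and 20.4 TPM in oeDAZL, a log2 fold change of 0.79 with an adjusted p = 0.0896 in limma. The 8 PGC markers summed to 71.154 and 63.665 TPM in control and to 58.104 and 63.662 TPM in oeDAZL. All 6 tested PGC markers were lower in oeDAZL, beside 65.3% of all tested genes. None of the 6 was called or reached an unadjusted P of at most 0.05 in limma. The groups did not overlap for 3 of the 6, nor for 54.4% of all tested genes. The part of cell composition in the HPGD difference was not tested.

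The difference of HPGD was recomputed under 11 other settings and lay between 0.70 and 0.85. The filters and the replicate block cannot change the log2 fold change of any gene here, so only the other settings bear on these ranges. The HPGD difference was 0.70 without oeDAZL replicate 1 and 0.83 without oeDAZL replicate 2. PTGS2 lay between 0.49 and 0.83 over 10 settings, with adjusted p-values in limma from 0.127 to 0.546, and PTGES3 between 0.12 and 0.24 over 11, with adjusted p-values from 0.0731 to 0.652. Both kept a positive sign.

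**Figure D5:**
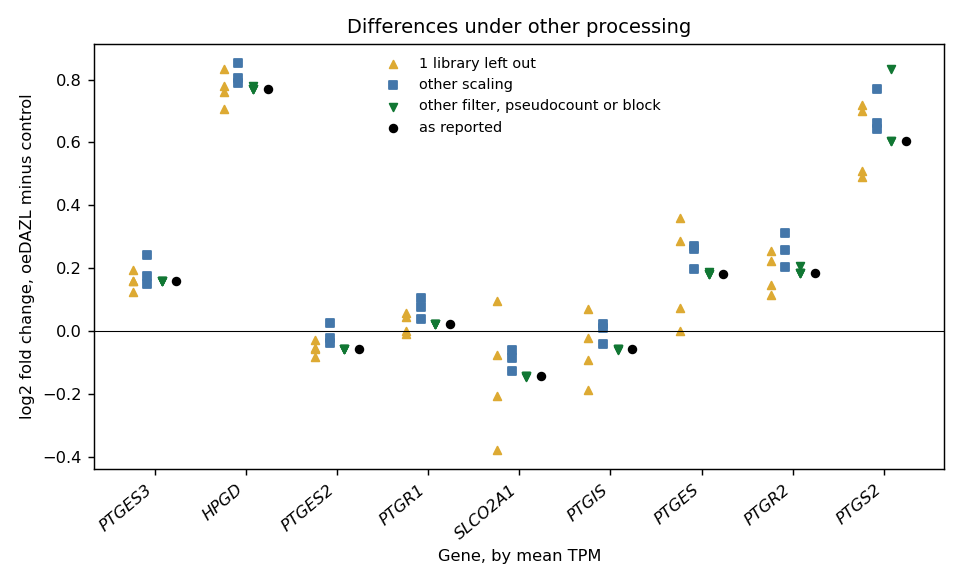
Difference between oeDAZL and control on the log2 scale for the 9 tested prostaglandin genes, ordered by mean TPM, as reported and under each other setting. Triangles pointing up leave out 1 library, squares use another scaling, triangles pointing down another filter, pseudocount or the replicate block, and circles are as reported. HPGD lies between 0.70 and 0.85, whereas SLCO2A1 lies between −0.38 and 0.094 and PTGIS between −0.19 and 0.070.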

How the data were processed

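RNA sequencing of 2 control and 2 oeDAZL libraries was analysed, and the 6 miRNA libraries of the series were not analysed here. The authors deposited 1 table of TPM per gene, with a column per library. Per the methods of the study, adaptors and poor-quality reads were removed, reads were mapped to hg38 with HISAT2, uniquely mapped reads were kept, and genes were quantified with StringTie. The submitters' processing notes list Trim Galore 0.6.4, cutadapt 1.18, HISAT2 2.1.0, Bowtie 1.0.0 and StringTie 2.1.4. Keeping only such reads can lower the values of genes with close copies. The annotation release is not given in the sources used here. The study called genes with DESeq2 on counts, which were not used here.

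Of 65003 entries, 45 chromosome Y copies of pseudoautosomal genes and 18 repeats were dropped, leaving 64940 genes, 31689 of them at 0 in all 4 libraries. TPM holds no depth, so counting error is unknown and precision rests on the spread between replicates. Genes averaging 1 TPM or more were fitted as log2(TPM + 1) with limma 3.58.1 in R 4.3.3 (lmFit, eBayes with trend), without covariates, and p-values were adjusted by Benjamini-Hochberg over the 16687 genes. Fold changes on this scale understate those of low genes. The procedure was tested on simulated data with 200 genes changed by 2 on the log2 scale. It called 100% of them with the right sign and made 0 false calls. Smaller changes, such as those of the prostaglandin genes, and changes in genes at low levels were not simulated. Groups came from the sample labels.

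The members, lists and tests were chosen with earlier results of these data known. Named genes were all 10 members, each pathway list's called genes, its gene of highest mean TPM and its 3 tested genes with the largest absolute log2 fold change, the 5 genes closest to HPGD in pattern, DAZL, and pseudogenes, antisense and read-through entries of members. Marker genes were named in addition after their values were seen. Every called marker was named. Of those that led their list, differed in sign from its sum or define hPGCLCs, only some were named. PLAAT3 and PTGR3 were matched by Ensembl identifier to the table's older symbols. Gene positions and 3′UTRs came from GENCODE 44, with the longest 3′UTR per gene, and miRNA sequences from RefSeq on GRCh38.p14, where all 5 matched. The sites in SLCO2A1 are not reported here. Alternatives were a pseudocount of 0.1, no filter, a mean TPM of at least 5, median-of-ratios scaling, quantile normalization, TPM rescaled without mitochondrial genes, the replicate number as a block, limma without trend, and each library left out in turn.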

Additional observations from a re-analysis of the deposited data

How the results depend on the processing

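HPGD was given no test. Of the other prostaglandin genes and of the pathway genes, none was called under any of the 13 alternatives. PTGS2 has no value among genes averaging 5 TPM or more, and PTGS1 has one without the filter alone. The log2 fold change of HPGD was 0.85 with median-of-ratios scaling and 0.70 to 0.83 with 1 library left out. That of PTGES2 turned to 0.027 with median-of-ratios scaling, and that of PTGIS to 0.023 with this scaling and to 0.0091 with quantile normalization. With 1 library left out, PTGIS ranged from −0.19 to 0.070, SLCO2A1 from −0.38 to 0.094, and PTGR1 from −0.011 to 0.056. None of these differences passed the test, and the cause of the changes in sign was not tested.

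Called genes over the whole table, 21 higher and 94 lower, became 55 and 267 when the pseudocount was 0.1, 6 and 23 among genes averaging 5 TPM or more, and 41 and 52 under quantile normalization. With 1 library left out they ranged from 35 to 87 higher and from 85 to 235 lower, with 87 and 235 without control replicate 2. In these fits a lone library is assumed to vary like the other group. Lower genes made up 81.7% of calls as deposited and 55.9% with quantile normalization. An adjusted p under 0.05 in limma was reached by 10 genes in all, by 673 without control replicate 2, 4 of them pathway genes (PLAAT3, PLA2G6, PLA2G2A and GSTM2), and by none of the prostaglandin genes given a test, whose lowest adjusted p over the alternatives was 0.0731, for PTGES3 without control replicate 2.

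With the replicate number as a block, 26 genes were called higher and 99 lower, and of the prostaglandin genes other than HPGD, PTGS2 alone kept an unadjusted P of at most 0.05. Deviations from the group means of same-numbered libraries had a correlation of −0.104 over 16687 genes. With 2 libraries a group, this value cannot show whether the replicate numbers pair the libraries. The crossed pairing, added after seeing the data, gave 28 higher and 107 lower. An adjusted p under 0.05 in limma was then reached by 1089 genes, against 4 with the same-numbered block. Of the 1089, 6 were pathway genes (the 4 above, SLCO4A1 and ABCC4). No label gives the crossed pairing, and the negative correlation in the same data favours it, so these counts lend no support to any gene. TPM keeps no depth, so what depth limits could not be assessed.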
